A study of Mus musculus with 40 samples.

Results

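The first wave of transcription in the heart after cardiomyocytes began to express *Il11* was read from 15 of the 40 hearts in the series. The 15 libraries are those whose labels give either the control group or CM-Il11-Tg hearts 1 week after tamoxifen: 3 control and 4 week 1 hearts from males, and 4 control and 4 week 1 hearts from females. A further 2 libraries from males were left out because one of their labels names control and another 6 weeks. PolyA RNA was sequenced from each heart separately, so every library is 1 mouse. The remaining 23 libraries are CM-Il11-Tg hearts at 3 weeks (8 libraries) and 6 weeks (7 libraries) and uninduced CM-Il11-Tg hearts (8 libraries), and they are used here only where the first week is set against them.

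CM-Il11-Tg mice were heterozygous for 2 transgenes. One, *α-MHC-MerCreMer* (MCM), gives cardiomyocytes a Cre recombinase that enters the nucleus after tamoxifen. The other, *Rosa26-Il11*, holds murine *Il11* behind a floxed stop cassette, so that recombination removes the stop and the cell transcribes *Il11*. Mice given tamoxifen were 8 weeks old at the first of 5 daily doses of 20 mg/kg. The uninduced CM-Il11-Tg hearts are labelled as without tamoxifen. The control mice were age-matched littermates heterozygous for MCM and without *Rosa26-Il11*, labelled WT and tamoxifen, so controls and week 1 hearts shared the Cre transgene and the drug. The labels do not give how long after tamoxifen the controls were collected, and effects of time since the drug therefore cannot be told apart from effects of *Il11*. The parents were female *Rosa26-Il11* mice on C57BL/6N and male MCM mice on C57BL/6J, so the hearts of both sexes come from the same cross. The labels call the tissue heart and the study's text names ventricular tissue. Its cardiomyocyte markers (*Myh6*, *Tnnt2* and 8 others) summed to between 34660 and 67780 CPM (read counts scaled to library size) in every one of the 15 libraries.

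IL-11 is a secreted cytokine of the IL-6 family. It binds its receptor α chain, encoded by *Il11ra1* in the mouse, and then recruits the shared signal transducer gp130 (*Il6st*), whose associated Janus kinases phosphorylate the transcription factor STAT3 and whose adaptor SHP2 (*Ptpn11*) leads to ERK. STAT3 drives its own feedback inhibitor *Socs3* and, in many tissues, the acute phase proteins. In the heart the α chain is best known from fibroblasts, and *Il11* itself is scarcely expressed in the healthy adult mouse.

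The deposited values are in CPM, read counts over the scaled library size, with 1 table for each sex, so levels were compared within a sex only. Reads on listed genes ran from 20345999 to 65333832 in the 15 libraries, with a median of 24424246. A library stood apart in each sex. In male week 1 replicate 4 transcripts of the mitochondrial genome took 7.70% of all reads on listed genes, where the other 3 male week 1 hearts had 17.9% to 19.6%. In female week 1 replicate 2 the atrial genes *Myl7* and *Myl4* stood at 52.3 and 67.0 CPM, where no other of the 8 female libraries passed 0.285 and 3.01 CPM, and the nuclear RNAs *Malat1*, *Neat1* and 3 others summed to 445 CPM, where the other 7 held 1329 to 2638 CPM. Outside the 15, these nuclear RNAs were also low in female uninduced replicate 4 (384 CPM) and female week 6 replicates 2, 3 and 4 (480, 608 and 635 CPM). The atrial marker list summed to 1679 CPM in female week 6 replicate 2. Both libraries were kept, and the larger shifts seen without either are given beside the values they touch. Without them, 5474 in place of 5671 genes were called in males and 3905 in place of 4813 in females.

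*Il11* (chromosome 7, 4775372 to 4785858, minus strand, GRCm39) was close to absent in controls and abundant in every week 1 heart. Male controls held 0, 0.114 and 0.146 CPM and male week 1 hearts 351, 410, 375 and 712 CPM. Female controls held 0.0431, 0.145, 0 and 0.166 CPM and female week 1 hearts 461, 447, 414 and 614 CPM. The groups lay far apart in both sexes, and within week 1 replicate 4 was the highest library of each sex. The log2 fold change, taken on log2(CPM + 0.5) here and throughout, was 9.57 ± 0.23 in males (SE, n = 3 and 4, adjusted p = 4.3e-16) and 9.68 ± 0.24 in females (SE, n = 4 and 4, adjusted p = 1.41e-16), and since the controls lie under the added 0.5 these values understate the ratio. Placing the 2 contradictory libraries by their titles gave 7.13 in males (adjusted p = 0.0153 by limma). Placing them by their descriptions gave 9.34 (adjusted p = 1.88e-17 by limma). In females the controls held 7 reads of *Il11* in all and the ratio of levels was 5627, with a counting interval of 2731 to 14000. An exact permutation test, two-sided, gave p = 0.0286 in each sex, the smallest p either design allows. Uninduced CM-Il11-Tg hearts were not at the control level, with means of 19.6 ± 2.89 CPM in males and 26.8 ± 15.1 CPM in females (SD, n = 4 each). They differ from controls both in carrying *Rosa26-Il11* and in having had no tamoxifen, and these cannot be told apart.

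**Figure D1:**
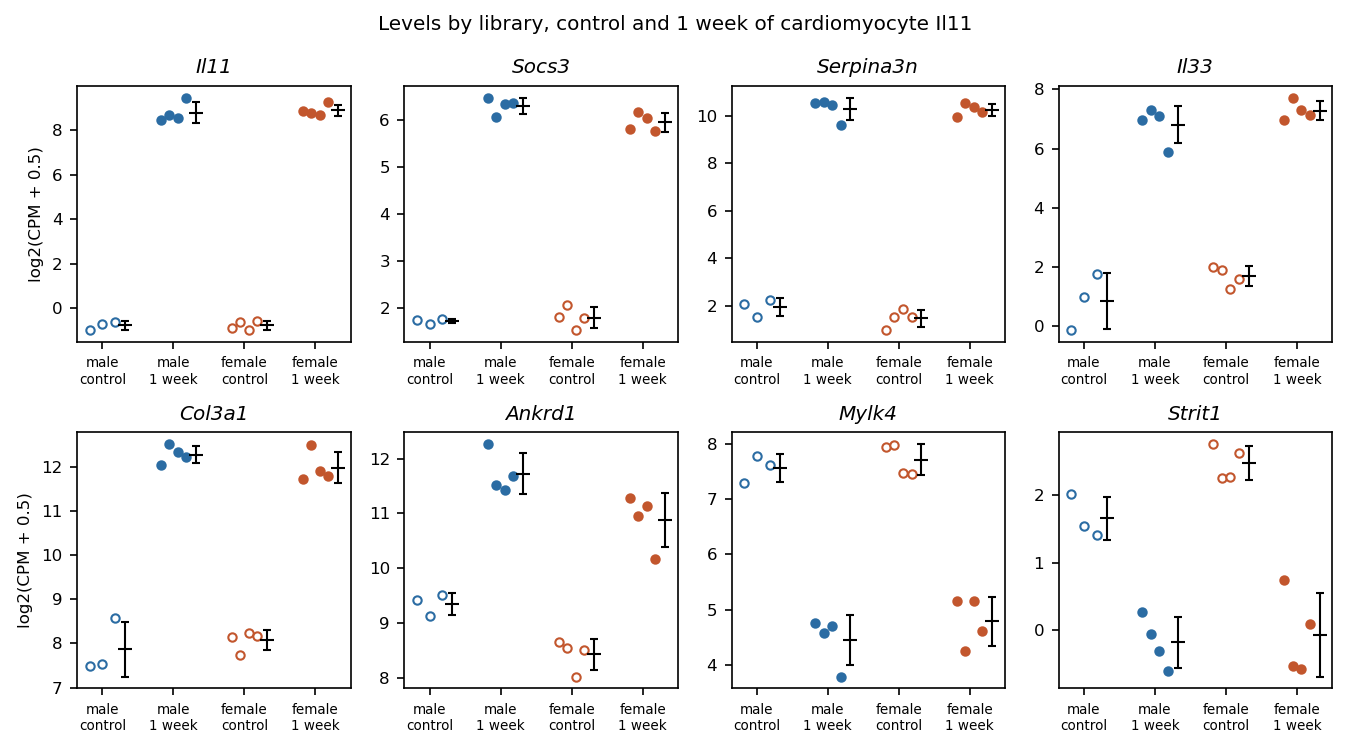
Levels of 8 genes in the 15 hearts as log2(CPM + 0.5); each point is 1 library, open for controls and filled for week 1, in blue for males and orange for females, with the group mean and SD in black beside the points. The week 1 libraries of *Il11* lie between 351 and 712 CPM, against at most 0.166 CPM in controls, and *Mylk4* lies in the opposite order.

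The response reached far beyond *Il11*. In males 3196 genes were higher and 2475 lower at week 1, 18.9% and 14.6% of the 16931 genes tested, by limma at an adjusted p under 0.05. In females 2586 were higher and 2227 lower, 15.3% and 13.1% of 16956. Large changes were mostly increases. With a minimum of 2-fold, males had 1035 increases and 331 decreases, 6.11% and 1.95% of the genes tested, and females 987 and 259, 5.82% and 1.53%. At 8-fold or more the males had 72 increases and 1 decrease and the females 74 and 0, and 60 of the higher genes were the same in both sexes. Placing the 2 contradictory male libraries by their titles gave 3259 called genes in males and by their descriptions 6043. With the titles 67 of 177 calls of named genes in males were lost and none changed sign. Those of *Osmr*, *Stat3*, *Il6st*, *H2-Eb1*, *Adgre1*, *Fn1*, *Selp* and *Kcnip2* were among them. With the descriptions 2 of 177 were lost, those of *Pmaip1* and *Kcnq1ot1*.

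The direction of the many small changes depends on the scaling. On the deposited scale the median log2 fold change over all genes tested was 0.019 in males and -0.024 in females. Scaling each library to its total instead moved these medians up by 0.311 and 0.305 and turned the split of called genes into 6410 higher and 646 lower in males and 7001 higher and 583 lower in females. Mitochondrial transcripts took 27.5% ± 1.46 of the reads in male controls (SD, n = 3) and 16.1% ± 5.67 at week 1 (n = 4), and 30.04% ± 1.27 and 22.7% ± 1.91 in females (n = 4 each). Changes below are on the deposited scale, and medians of gene lists are set against the medians over all genes. A list median given with scaling to the total is to be read against 0.330 in males and 0.281 in females, the medians over all genes on that scale.

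**Figure D2:**
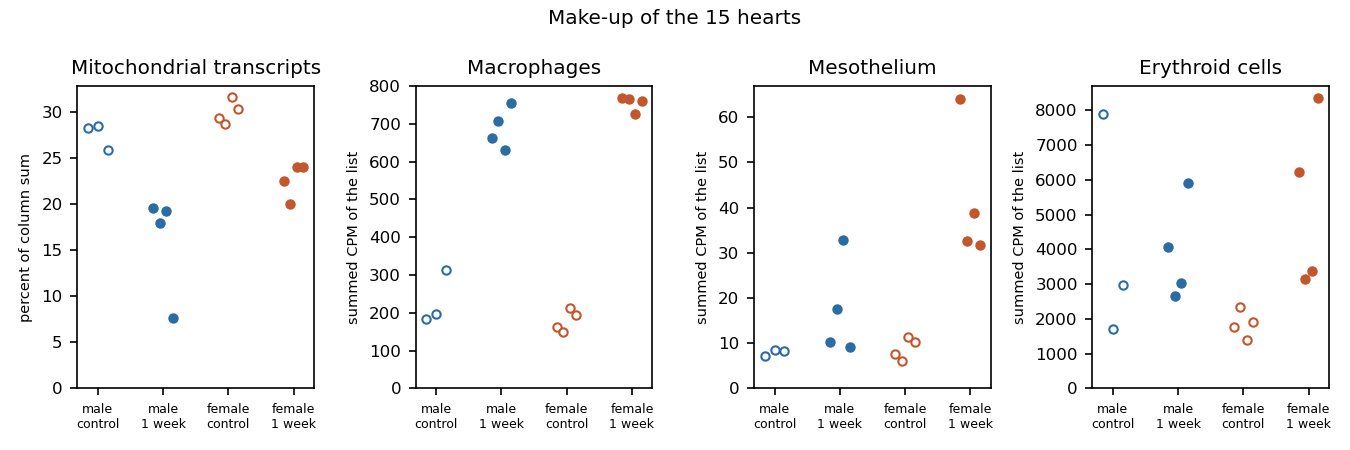
Mitochondrial transcripts in percent of the column sum, and summed CPM of the macrophage, mesothelial and erythroid marker lists, in each of the 15 hearts; each point is 1 library, open for controls and filled for week 1. Male week 1 replicate 4 is the point at 7.70% mitochondrial, and macrophage sums of 632 to 769 CPM at week 1 stand above control sums of 150 to 314 CPM.

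Males and females changed many of the same genes. Of the 16627 genes tested in both sexes, 1806 were higher in both and 1051 lower in both, 10.9% and 6.32%, and 9 were called in opposite directions. Of the 1361 genes called at 2-fold or more in males and tested in females, 1343 had the same sign in females and 86.1% were called there the same way. Of the 1233 such genes of females, 1218 had the same sign in males and 88.9% were called. For 833 of the 851 genes that passed 2-fold in both sexes, control and week 1 libraries did not overlap in either sex. These genes had already been called at 2-fold or more, so this separation adds little to the calls. The share over all 16627 genes was not computed. Across the 16627 genes the 2 sets of log2 fold changes had a Pearson r of 0.825, a description over genes that are not independent.

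**Figure D3:**
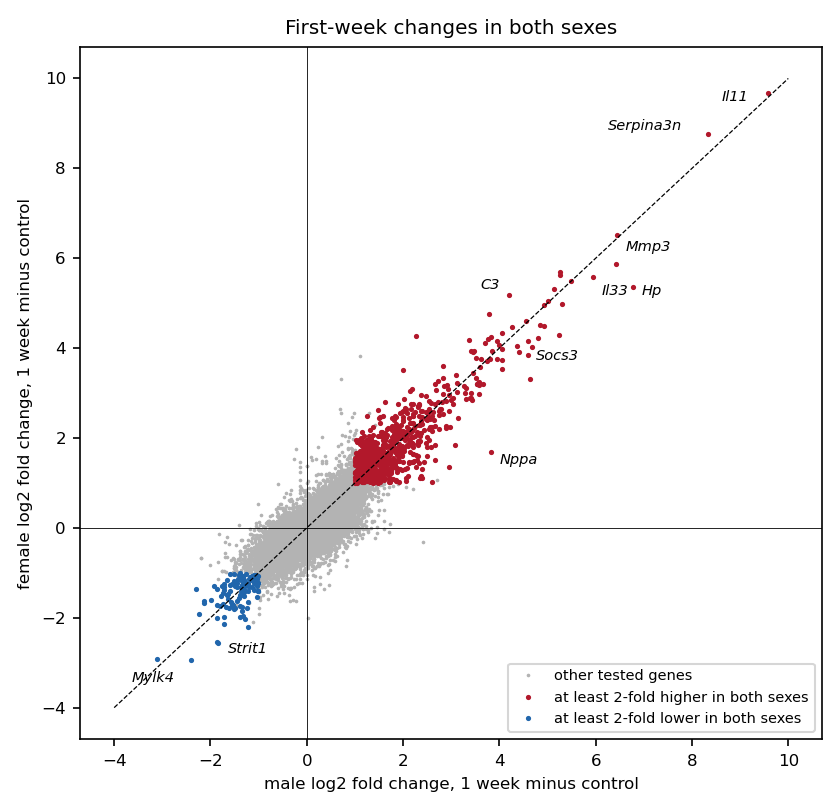
Log2 fold change at week 1 against control in males (horizontal axis) and females (vertical axis), 1 point per gene for the 16627 genes tested in both sexes, with genes called at 2-fold or more in both sexes in red (higher) and blue (lower), a few genes named, and the dashed line marking equal change. *Il11* sits at 9.57 and 9.68 and *Serpina3n* at 8.34 and 8.76, while the falls end near *Mylk4* at -3.12 and -2.93.

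After *Il11*, the largest rise was that of *Serpina3n*, a secreted inhibitor of serine proteases that is made in the acute phase. It and the rises and falls that follow were picked among genes called at 2-fold or more in both sexes whose groups did not overlap. Their separation was thus set by the rule. Male controls held 3.71, 2.39 and 4.17 CPM and week 1 hearts 1477, 1539, 1377 and 766 CPM. Female controls held 1.46, 2.37, 3.15 and 2.38 CPM and week 1 hearts 979, 1465, 1306 and 1126 CPM. Every week 1 library stood far above every control, and the lowest was male replicate 4. The log2 fold change was 8.34 ± 0.33 in males (adjusted p = 1.45e-12) and 8.76 ± 0.38 in females (adjusted p = 1.35e-12), and part of its reads could be shared with its paralogue *Serpina3m*, which rose by 4.64 and 3.31.

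The other large rises, named by the same rule, were of several kinds. *Mmp3*, stromelysin 1, a protease that cleaves matrix proteoglycans, went from 0.795 to 2.06 CPM in male controls to 146 to 177 CPM and from 0.603 to 1.5 CPM in female controls to 125 to 208 CPM (log2 fold change 6.45 and 6.53). *Cpxm1*, a secreted member of the carboxypeptidase family, rose by 6.42 and 5.87, from at most 5.76 CPM to at least 245 CPM. *Hp*, the haemoglobin-binding plasma protein haptoglobin, rose by 6.78 in males and 5.36 in females. The alarmin *Il33*, which signals through ST2, was at 0.412, 1.48 and 2.87 CPM in male controls and at 125, 156, 136 and 58.2 CPM at week 1. In females *Il33* went from 1.90 to 3.49 CPM to 124 to 210 CPM. By the rule the groups of *Il33* were apart in both sexes, and the lowest week 1 library was again male replicate 4.

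Complement factor I (*Cfi*) rose from at most 0.151 CPM to 17.9 to 38.1 CPM in males and from at most 0.129 CPM to 20.1 to 28.4 CPM in females. Female controls held 4 reads of it in all, and the ratio of levels was 495, with a counting interval of 193 to 1818. *Nfasc*, the cell adhesion protein neurofascin, rose by 5.25 and 5.62 and *Aldh1a2*, which makes retinoic acid, by 5.0 and 5.06. *Csf2rb2*, the β chain of the mouse receptor for interleukin 3, rose by 5.13 and 5.32 and shares near-identical sequence with *Csf2rb*, so its reads are less certain. *C4b*, complement component 4, rose by 5.25 and 5.69, with the same limit for *C4a*. That none of these 5 genes overlapped between control and week 1 in either sex follows from the rule.

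The falls were smaller. *Mylk4*, a myosin light chain kinase found in heart muscle, held 156, 220 and 198 CPM in male controls and 26.6, 23.2, 25.5 and 13.3 CPM at week 1. Female controls held 245, 253, 178 and 176 CPM and week 1 hearts 35.0, 18.5, 35.1 and 23.9 CPM. By the rule all 8 week 1 libraries were below all controls. The log2 fold change was -3.12 ± 0.28 in males (adjusted p = 1.07e-07 by limma) and -2.93 ± 0.51 in females (adjusted p = 0.00019 by limma). *Mylk4* also stood lower than in controls in uninduced hearts, which had no tamoxifen, at 100.1 ± 21.0 CPM in males and 98.9 ± 63.9 CPM in females (SD, n = 4 each). *Serpina3n* stood higher there, at 123 ± 89.3 and 165 ± 172 CPM. With the 2 contradictory libraries placed by their titles the male change of *Mylk4* was -2.22 (adjusted p = 0.0612 by limma). With the descriptions its call was kept.

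The potassium channel subunit *Kcnv2* fell by 2.24 in males and 1.91 in females, and *Ogdhl*, a form of the 2-oxoglutarate dehydrogenase, by 1.87 and 2.01. *Pde4c*, which breaks down cyclic AMP, fell by 1.87 and 2.54, and *Rasgrp2*, an exchange factor for Rap1, by 1.80 and 1.74. *Strit1*, the micropeptide DWORF that enhances the calcium pump SERCA, went from 2.17 to 3.56 CPM to 0.150 to 0.703 CPM in males and from 4.31 to 6.29 CPM to 0.167 to 1.17 CPM in females. *Clcn1*, a muscle chloride channel, fell by 1.87 and 1.72, and *Timp4*, the metalloproteinase inhibitor typical of the heart, by 1.72 and 2.15. By the same rule the groups of these 7 genes were apart in both sexes. The remaining 2 of the 10 largest falls are unnamed RIKEN genes.

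The receptor chains and kinases of IL-11 moved modestly. Of the 14 genes listed, 5 were higher and 3 lower in males and 7 higher and 3 lower in females, with medians of 0.243 and 0.232. Without female week 1 replicate 2 the female numbers were 5 higher and 1 lower. Over all genes tested 18.9% were higher and 14.6% lower in males, and 15.3% and 13.1% in females. *Osmr*, the receptor chain that pairs with gp130 for oncostatin M, rose most: male controls held 21.5, 20.6 and 19.99 CPM and week 1 hearts 93.1, 69.7, 81.8 and 53.7 CPM, and female controls held 23.0, 19.6, 23.1 and 24.5 CPM and week 1 hearts 82.2, 70.9, 103 and 83.4 CPM. No library overlapped, and the log2 fold change was 1.79 ± 0.20 and 1.88 ± 0.25 (adjusted p = 1.72e-06 and 8.72e-06). *Stat3* rose by 0.80 and 0.99 and *Il6st* by 0.54 and 1.02, and the groups were apart for both genes. The IL-11 receptor chain *Il11ra1* rose by 0.70 in males (adjusted p = 0.00212) and stood at 0.17 in females (adjusted p = 0.377). It has a near-identical copy, *Il11ra2*, at 0.78 and 0.39, so the split between them is uncertain, and the female call of *Il11ra2* was lost without female week 1 replicate 2. *Lifr*, the leukaemia inhibitory factor receptor, fell by 0.40 and 0.33, *Ptpn11* by 0.57 and 0.39 and *Stat5b* by 0.44 and 0.26. With scaling to the total none of the 14 was lower, so these small falls hold on the deposited scale alone.

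Among 13 targets and feedback regulators of STAT3, males had 9 higher and 1 lower and females 8 and 1, with 8 higher in both and medians of 1.26 and 0.779. *Socs3*, which binds gp130 and blocks its kinases, held 2.85, 2.69 and 2.90 CPM in male controls and 88.4, 66.8, 80.5 and 81.5 CPM at week 1. In females the controls held 3.01, 3.68, 2.40 and 2.99 CPM and the week 1 hearts 55.5, 71.9, 66.1 and 54.1 CPM. The groups were far apart and the spread inside each was small, with a log2 fold change of 4.58 ± 0.25 in males (adjusted p = 9.32e-11) and 4.15 ± 0.39 in females (adjusted p = 7.77e-08). The interleukin 4 receptor *Il4ra* rose by 2.55 and 2.42, the nuclear IκB protein *Bcl3* by 2.07 and 2.56, the AP-1 factor *Junb* by 2.29 and 1.5, *Cebpd*, a transcription factor of the acute phase, by 1.85 and 1.07, and *Socs1* by 1.26 and 1.82. The 2 that fell were *Cish* in males (-0.99), which stood at 0.13 in females, and *Socs2* in females (-0.36), both feedback genes of STAT5.

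The palindrome TTCNNNGAA, to which STAT dimers bind, was searched in the 250 bases before the start of the canonical transcript. It reads the same on both strands. Single windows were read for the genes with the largest rises and falls that had one, and for *Socs3*, *Il4ra*, *Bcl3*, *Junb* and *Socs1*. Of these genes 3 held a match: *Socs3*, *Csf2rb2* of the rises and *Strit1* of the falls. Their sequences are shown because they matched. The windows of all the other genes held none, including those of *Serpina3n*, *Mmp3*, *Il33*, *Il4ra*, *Bcl3*, *Junb* and *Socs1*. The sequences are from GRCm39 with GENCODE starts, written 5′ to 3′ on the strand of the gene (minus in all 3), with the match in capitals; they lie at chr11:117860124-117860373, chr15:78189922-78190171 and chr3:63391390-63391639.
*Socs3*: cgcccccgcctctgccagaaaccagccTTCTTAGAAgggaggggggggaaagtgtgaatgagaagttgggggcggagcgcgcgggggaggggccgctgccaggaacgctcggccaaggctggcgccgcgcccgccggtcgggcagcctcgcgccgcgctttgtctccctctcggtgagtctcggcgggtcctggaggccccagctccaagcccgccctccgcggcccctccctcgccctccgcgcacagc
*Csf2rb2*: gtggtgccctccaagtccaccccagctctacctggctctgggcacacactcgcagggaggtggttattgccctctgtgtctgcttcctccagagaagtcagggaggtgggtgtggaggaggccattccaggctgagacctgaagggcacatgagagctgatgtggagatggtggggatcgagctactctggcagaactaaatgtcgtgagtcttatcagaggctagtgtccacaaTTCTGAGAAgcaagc
*Strit1*: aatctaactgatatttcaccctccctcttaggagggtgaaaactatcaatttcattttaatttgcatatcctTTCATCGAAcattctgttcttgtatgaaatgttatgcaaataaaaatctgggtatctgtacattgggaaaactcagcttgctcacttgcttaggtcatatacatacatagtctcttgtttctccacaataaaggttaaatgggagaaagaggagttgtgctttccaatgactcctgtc
The matches begin 223, 15 and 178 bases before the start. The motif was present upstream of 9.33% of the 697 genes that rose at least 2-fold in both sexes and had such a window, of 4.26% of the 94 that fell, and of 6.60% of all 13605. The C/EBP motif TTGCNNAA, searched on both strands, was found upstream of 10.9%, 5.32% and 8.22%, and the AP-1 motif TGANTCA upstream of 8.18%, 4.26% and 4.63%. Matches of STAT and AP-1 overlapped in 3 of 13918 windows, of C/EBP and AP-1 in 1, and of STAT and C/EBP in 0. These shares describe letters in a window and were not tested.

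Acute phase genes, most of them known as plasma proteins of the liver, were higher in the heart. In males 15 of the 19 listed genes rose and none fell. In females 16 of 20 rose and 1 fell. The medians were 1.77 and 1.74, against 0.019 and -0.024 over all genes. *Lcn2*, lipocalin 2, which binds bacterial iron carriers, went from 1.12, 1.02 and 1.42 CPM to 54.0, 38.9, 45.0 and 27.2 CPM in males and from 0.919 to 2.58 CPM to 23.6 to 38.1 CPM in females (log2 fold change 4.59 and 3.84). The metal-binding *Mt2* rose by 3.41 and 2.90, *Itih4* by 3.83 and 4.24, *Saa3*, a serum amyloid A gene, by 3.95 and 3.75, and *Lrg1* by 2.17 and 1.86. The 1 gene that fell was the transferrin receptor *Tfrc* in females (-0.99), which stood at -0.91 in males without passing the test.

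Complement rose almost throughout. Of 21 genes 18 rose in males and 20 in females, none fell, and 18 rose in both, with medians of 2.26 and 2.46. *C3*, the component at which the pathways of activation meet, held 72.8, 71.7 and 94.8 CPM in male controls and 1329, 1613, 1815 and 1189 CPM at week 1. In females it went from 43.7, 47.6, 61.8 and 40.3 CPM to 1814, 1971, 1805 and 1429 CPM. The libraries did not overlap and the log2 fold change was 4.20 ± 0.20 and 5.18 ± 0.21 (adjusted p = 1.1e-11 and 4.41e-13). The classical pathway proteases *C1ra* and *C1s1* rose by 2.93 and 2.57 in males and by 3.09 and 2.79 in females. *Cfb* of the alternative pathway rose by 2.72 and 2.80, and the macrophage genes *C1qa*, *C1qb* and *C1qc* by 1.92 to 2.20. An inhibitor, *Serping1*, rose alongside, by 2.47 and 2.43. *Cd59a*, which blocks the final pore, stood at -0.13 and -0.23 and passed in neither sex.

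Chemokines that draw monocytes, B cells and dendritic cells rose from almost nothing. Among the cytokines and chemokines of granulocytes and monocytes 8 of the 12 tested rose in males and 10 of 12 in females, and among the other chemokines 8 of 12 and 9 of 12. *Ccl8* held 0.150, 0.0757 and 0.244 CPM in male controls and 12.6, 26.4, 16.2 and 25.6 CPM at week 1, and in females went from at most 0.222 CPM to 15.6 to 22.6 CPM (log2 fold change 4.92 and 4.97). *Cxcl13*, which guides B cells, had 0 reads in the male controls and 8.27 to 25.2 CPM at week 1, at least 588-fold higher when the controls are set at 3 reads over the group. Female controls held 2 reads of *Cxcl13* in all, a ratio of 484 with a counting interval of 134 to 4001. *Ccl19*, a ligand of CCR7, rose by 4.05 and 3.98, *Ccl7* by 3.57 and 3.26, *Ccl12* by 3.51 and 3.79, *Cxcl14* by 3.51 and 3.33 and the eosinophil chemokine *Ccl11* by 2.14 and 3.06. *Cxcl9*, which is driven by interferon γ, went the other way, at -1.48 in males without passing the test and at -0.93 in females, where it was lower. *Il6*, a close relative of *Il11*, rose by 2.33 and 1.45, and *Il1b* stood at 0.27 and 0.54 and passed in neither sex, while *Tnf* was too low to be tested.

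Genes of macrophages and of antigen presentation on MHC class II were higher. All 12 macrophage markers rose in females and 11 of 12 in males, where *Cd163* stood at 0.31. Their summed level went from 183 to 314 CPM in male controls to 632 to 755 CPM and from 150 to 212 CPM in female controls to 725 to 769 CPM. In bulk tissue more cells of a type and more RNA per cell cannot be told apart, nor can fewer cells and less. *Adgre1* (F4/80) went from 7.08, 7.57 and 13.6 CPM to 31.2, 22.8, 22.3 and 32.8 CPM in males and from 3.44 to 8.90 CPM to 32.4 to 38.2 CPM in females, without overlap (log2 fold change 1.52 and 2.48). Markers of monocytes newly come from blood and markers of macrophages that live in the heart rose side by side. The numbers were 9 of 12 and 6 of 8 in males, and 7 of 11 and all 8 in females. The monocyte list also holds *Fn1*, which is counted with the matrix genes too. Without female week 1 replicate 2 the 7 became 6, and the female median of that list went from 1.38 to 0.847. *Ccr2*, the receptor for *Ccl2*, rose by 1.99 and 2.46 and *Plac8* by 3.66 and 3.19, while *Ly6c2* stood at 0.39 and 0.02 without passing. Among resident markers *Folr2* rose by 1.30 and 2.04 and *Cx3cr1* by 1.48 and 2.62.

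Of 7 MHC class II genes 6 rose in males and 7 in females, with medians of 1.15 and 1.59. With the 2 contradictory libraries placed by their titles all 6 lost their call in males, at 0.35 to 0.91. Placed by their descriptions, none of the 6 did. The male change of *Il11* itself was 7.13 with the titles and 9.34 with the descriptions. *H2-Eb1*, a class II β chain, held 30.2, 30.8 and 49.1 CPM in male controls and 105, 130, 84.9 and 132 CPM at week 1, and went from 22.4 to 24.97 CPM to 72.3 to 137 CPM in females. The class II activator *Ciita* rose by 1.54 in females and stood at 0.20 in males. Among genes of interferon response and class I presentation 4 of 17 were higher in males and 12 in females. The medians were 0.425 and 0.432, and of all genes tested 18.9% were higher in males and 15.3% in females. The 12 in females became 8 without female week 1 replicate 2.

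Markers of other blood cells differed from list to list. For comparison, 18.9% of all genes tested were higher and 14.6% lower in males, and 15.3% and 13.1% in females. Of the 12 neutrophil markers 7 were listed. *Ly6g*, *Cxcr2*, *Retnlg*, *Camp* and *Ngp* were not. Of the 7, 5 rose in males and 6 in females, led by the gelatinase *Mmp9*, which is not confined to neutrophils and rose by 4.79 and 4.23, while *S100a8* stood at 0.16 and 0.66 and passed in neither sex. Of the T cell markers only *Cd4* rose, by 1.34 and 1.25, in 6 tested in males and 9 in females. *Cd3e* stood at 0.28 in females, without passing, and was too low to be tested in males. *Cd79b* and *Ighm* rose among 7 tested B cell and plasma cell genes in males, and *Ighm* alone rose in females, by 1.33 and 1.31, whereas *Cd79a* passed in neither sex. *Mzb1*, a plasma cell gene, fell by 0.66 in females, from 1.05 to 1.44 CPM to 0.391 to 1.04 CPM, a call lost with scaling to the total and without female week 1 replicate 2, and stood at -0.48 in males without passing. Erythroid genes rose in females alone by the test within each sex, with 7 of 7 higher and summed levels of 1396 to 2326 CPM in controls and 3133 to 8350 CPM at week 1. In males 0 of 6 passed, at 1697 to 7903 and 2649 to 5913 CPM. The globin genes of females lost their call without female week 1 replicate 4. Mesothelial genes had the same form: 7 of 8 rose in females, where their sums went from 6.10 to 11.4 CPM to 31.8 to 64.0 CPM, and 1 of 8 in males, where they went from 7.16 to 8.41 CPM to 9.25 to 32.9 CPM. The difference between the sexes was called for none of the erythroid or mesothelial genes, and the part of these cells in other changes was not tested.

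Genes of the matrix and its fibroblasts were higher. Of 18 collagen genes 14 rose in males and 11 in females and none fell, with medians of 0.963 and 0.911, the latter 0.629 without female week 1 replicate 2. *Col3a1*, the fibrillar collagen of loose connective tissue, held 180, 184 and 382 CPM in male controls and 4200, 5831, 5153 and 4778 CPM at week 1. In females it went from 283, 214, 299 and 288 CPM to 3395, 5791, 3815 and 3522 CPM. All week 1 libraries lay above all controls, with a log2 fold change of 4.41 ± 0.26 and 3.90 ± 0.20 (adjusted p = 2.91e-10 and 1.67e-11). *Col1a1* rose by 3.42 and 3.00 and *Col14a1* by 3.39 and 2.89. The basement membrane genes *Col4a1* and *Col4a2* stood at -0.27 and -0.36 in males and at 0.00 and 0.01 in females and passed in neither sex.

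Proteins that build and cut the matrix rose with it, 21 of 25 tested in males and 20 of 26 in females. *Timp1*, an inhibitor of metalloproteinases, went from 1.65, 0.606 and 2.02 CPM to 44.7, 69.8, 54.4 and 25.8 CPM in males and from 0.603 to 2.66 CPM to 26.3 to 44.3 CPM in females (log2 fold change 4.67 and 4.01). The collagen crosslinker *Lox* rose by 3.76 and 4.20, fibronectin (*Fn1*) by 2.83 and 3.34, *Mmp14* by 2.02 and 2.06, biglycan (*Bgn*) by 1.98 and 1.82 and periostin (*Postn*) by 1.97 and 1.75. For *Timp1*, *Lox* and *Fn1* male replicate 4 was the lowest week 1 library of its sex. The YAP targets *Ccn1* and *Ccn2* stood at 0.00 and 0.13 in males and at -0.77 and -0.34 in females and passed in neither.

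Of 10 fibroblast markers 8 rose and 1 fell in each sex, and their sum went from 1407 to 1680 CPM to 3429 to 4615 CPM in males and from 1887 to 2173 CPM to 3072 to 5819 CPM in females. The marker that fell was *Gsn*, the actin-severing gelsolin, by 1.32 and 1.45. Markers of activated fibroblasts rose in 9 of 12 in males and 7 of 12 in females. *Comp*, a cartilage matrix protein also made by fibroblasts in scars, went from 0.757 to 1.499 CPM to 41.9 to 87.7 CPM in males and from 0.750 to 1.74 CPM to 28.4 to 196 CPM in females, the highest being female replicate 2. *Cthrc1* rose by 2.62 and 2.58, while the smooth muscle actin *Acta2* stood at -0.39 and -0.41 and passed in neither sex. In the TGFβ and activin family 7 of 14 were higher and 1 lower in males and 6 higher and 1 lower in females. The activin subunit *Inhbb* rose by 2.52 and 2.46 and the receptor *Tgfbr2* by 1.78 and 2.00, *Tgfb1* stood at 0.10 and 0.18 without passing, and *Bmp4* fell by 0.71 and 0.84, calls that were lost with scaling to the total and, in males, without male week 1 replicate 2 (adjusted p = 0.076 by limma). Among 10 factors of mesenchymal transition 4 were higher and 1 lower in males and 6 higher in females. Of all genes tested 18.9% were higher and 14.6% lower in males, and 15.3% higher in females. *Snai1* was up by 2.19 and 2.16 and *Snai2* stood at -0.21 and -0.06.

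Vessel genes moved in both directions. Of 13 general endothelial markers none rose and 6 fell in males and 9 in females (7 without female week 1 replicate 2), and their sum went from 1395 to 1563 CPM to 979 to 1119 CPM in males and from 1367 to 1478 CPM to 930 to 1070 CPM in females, with no overlap. The medians were -0.372 and -0.594 and became -0.015 and -0.248 with scaling to the total, where 2 were lower and 1 was higher in each sex. On that scale the medians over all genes were 0.330 and 0.281. Of 10 capillary markers 6 were lower in males and 8 in females, and with scaling to the total 4 and 6 were lower and 1 was higher in females. *Car4*, the carbonic anhydrase on the capillary surface, held 29.1, 26.7 and 36.2 CPM in male controls and 11.3, 8.53, 7.88 and 9.25 CPM at week 1, and 24.6 to 33.7 and 7.59 to 8.70 CPM in females. The groups were apart, with a log2 fold change of -1.68 and -1.76.

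Markers of veins and of endothelium activated to bind leukocytes rose in 9 of 12 in males and 8 of 12 in females, and 2 and 1 were lower. *Selp*, P-selectin, on which leukocytes roll, went from 0.187, 0.492 and 0.423 CPM to 10.3, 10.2, 11.7 and 3.82 CPM in males and from 0.0968 to 0.350 CPM to 10.7 to 18.4 CPM in females (log2 fold change 3.37 and 4.17). *Plvap*, of the diaphragms of fenestrated and venous endothelium, rose by 2.97 and 2.25, *Ackr1* by 2.54 and 2.20, *Vcam1* by 2.21 and 1.88 and *Sele* by 2.04 and 2.06. *Apln*, the peptide made by tip cells and a member of the same list, fell by 1.92 and 1.30. Of 10 pericyte and smooth muscle genes 2 fell in each sex and none rose, where 14.6% and 13.1% of all genes tested were lower, with *Rgs5* lower in both (-0.89 and -0.66).

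**Figure D4:**
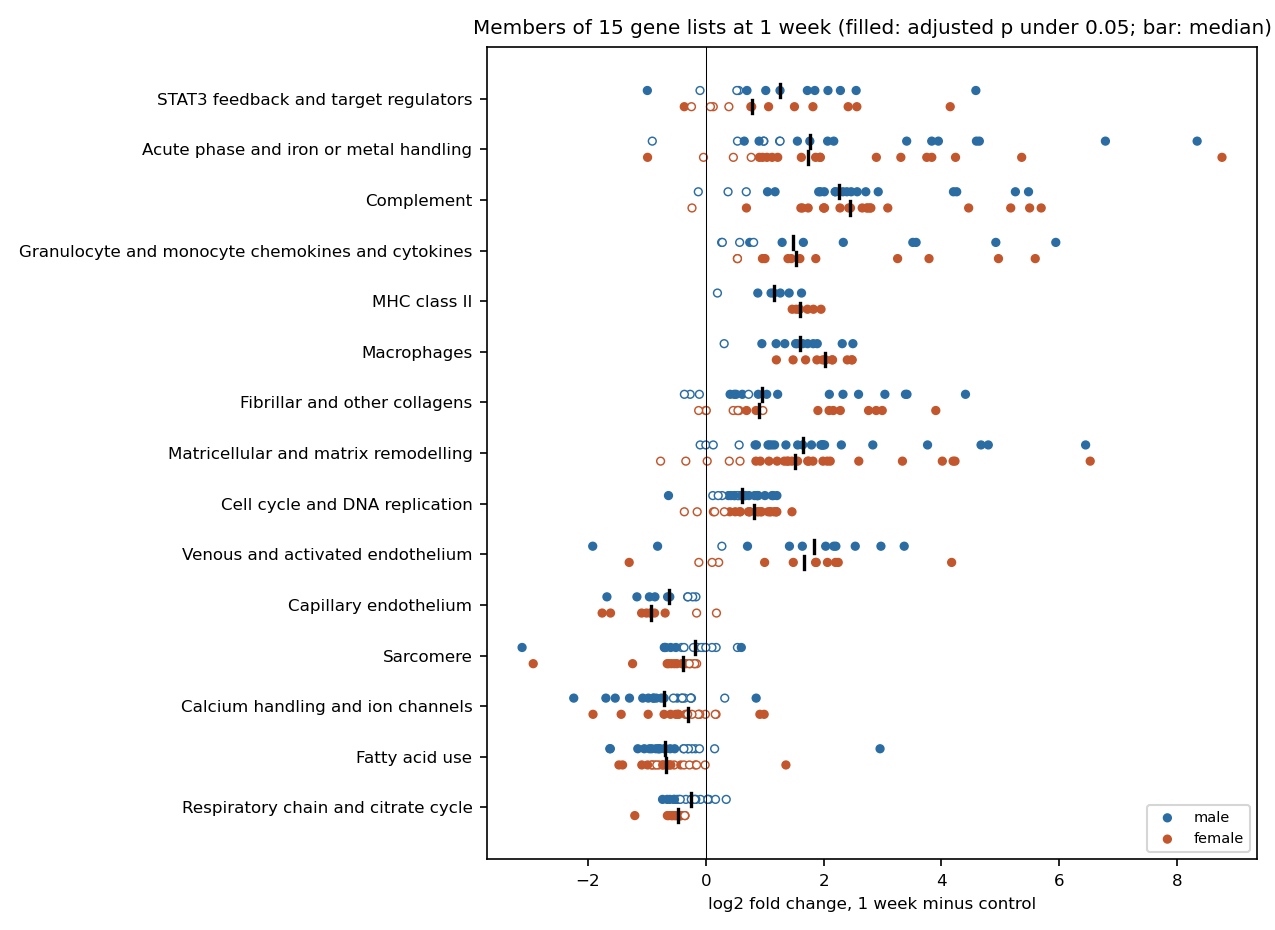
Log2 fold change at week 1 against control of each member of 15 gene lists, males in blue above females in orange; filled points passed the test, open points did not, and the black bars are the list medians. The complement medians of 2.26 and 2.46 lie to the right of the others shown, and the channel and fatty acid lists lie mostly left of 0 on the deposited scale. With scaling to the total the female channel median of -0.307 is 0.025, where the female median over all genes is 0.281.

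The fetal and stress program of cardiomyocytes, 13 genes, had 6 higher in males and 5 higher with 1 lower in females. The list holds *Ctss*, a protease also made by macrophages. *Ankrd1*, a sensor of stretch in the sarcomere, held 683, 557 and 725 CPM in male controls and 4928, 2952, 2756 and 3289 CPM at week 1, and went from 258 to 399 CPM to 1145 to 2482 CPM in females (log2 fold change 2.38 and 2.46). *Nppa*, atrial natriuretic peptide, held 59.96, 14.69 and 34.01 CPM in male controls and 870, 494, 429 and 220 CPM at week 1. In females it went from 34.3, 60.6, 55.3 and 74.4 CPM to 243, 202, 232 and 85.0 CPM. The groups did not overlap, and the log2 fold change was 3.83 ± 0.56 in males and 1.70 ± 0.59 in females, where the call was lost without female control replicate 1 (adjusted p = 0.101 by limma). Skeletal actin (*Acta1*) was uneven, at 1434, 640, 541 and 170 CPM in male week 1 hearts against 127 to 261 CPM in controls, and its call in males was lost without male week 1 replicate 1, the highest. In females *Acta1* stood at 0.16. The β-myosin heavy chain *Myh7* stood at 0.60 and 0.15 and passed in neither sex.

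Of 18 sarcomere genes 1 was higher and 5 lower in males and 9 lower in females, where 14.6% and 13.1% of all genes tested were lower. The medians of -0.181 and -0.388 became 0.177 and -0.040 with scaling to the total, where those over all genes were 0.330 and 0.281. The 9 became 5 without female week 1 replicate 2, and the 5 became 7 without male week 1 replicate 4. Those lower in both sexes were *Mylk4*, *Ttn*, *Myom2*, *Ldb3* and *Cmya5*, and with scaling to the total 1 of the 18 was lower in each sex, *Mylk4*. The calls of *Ttn* and *Myom2* were also lost without male control replicate 3 in males, and in females without female week 1 replicate 2 and female control replicate 2, respectively. Of 10 general cardiomyocyte markers 3 were lower in each sex and *Ckm*, muscle creatine kinase, was the one lower in both (-0.72 and -0.69). The median of these 10 was -0.146 in males, which became 0.212 with scaling to the total, and -0.383 in females, which became -0.035.

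Of 21 channels and pumps 12 were lower and 1 higher in males and 7 lower and 2 higher in females, and the sex difference was called for 0 of them. Over all genes tested 14.6% were lower in males and 13.1% in females. The channel median was -0.707 in males and -0.307 in females. With scaling to the total the latter became 0.025, where the female median over all genes was 0.281. *Kcnip2*, the subunit of the transient outward potassium current, held 168, 190 and 172 CPM in male controls and 58.8, 76.3, 67.3 and 87.0 CPM at week 1, and went from 171 to 202 CPM to 58.9 to 73.6 CPM in females, without overlap (log2 fold change -1.29 and -1.44). The pacemaker channel *Hcn2* fell by 1.54 and 0.98. *Kcnq1*, of the slow delayed rectifier, rose by 0.85 and 0.99. The ryanodine receptor *Ryr2* fell by 0.97 in males and stood at -0.35 in females, and *Atp2a2*, the calcium pump of the sarcoplasmic reticulum, stood at -0.41 and -0.01 and passed in neither sex.

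Genes of fatty acid oxidation fell in both sexes, 14 of 23 each with 1 higher, and 10 were lower in both. The medians were -0.684 and -0.672. With scaling to the total they were -0.326 and -0.324, where those over all genes were 0.330 and 0.281. The β-oxidation enzymes *Acadm*, *Acadvl*, *Hadha*, *Hadhb* and *Acaa2* fell by 0.64 to 0.96. The 1 gene that rose was *Angptl4*, a secreted inhibitor of lipoprotein lipase, by 2.96 and 1.36. It held 5.73, 3.14 and 2.6 CPM in male controls and 25.98, 37.5, 31.6 and 32.3 CPM at week 1, and went from 4.61 to 11.7 CPM to 14.3 to 20.2 CPM in females, without overlap.

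Respiratory chain and citrate cycle genes were lower in 7 of 20 in males and 19 of 20 in females, and 6 were lower in both. Without male week 1 replicate 4 the 7 became 10. With scaling to the total the numbers were 1 lower and 2 higher in males and 2 lower in females. The male median went from -0.243 to 0.115, where that over all genes was 0.330. Citrate synthase (*Cs*) held 1140, 1295 and 1081 CPM in male controls and 582, 751, 768 and 725 CPM at week 1, and 1012 to 1139 and 730 to 816 CPM in females, where the call was lost with scaling to the total. Transcripts of the mitochondrial genome fell in 8 of 9 in males and 9 of 9 in females, with medians of -1.39 and -0.753. With scaling to the total 6 were lower in males and 3 in females, with medians of -1.03 and -0.405. Without male week 1 replicate 4 the male median was -0.864, and without female week 1 replicate 2 the number in females was 4 of 9. Glucose genes moved both ways, 5 of 17 higher and 4 lower in males and 3 and 5 in females, against 18.9% higher and 14.6% lower in males and 15.3% and 13.1% in females over all genes tested. The muscle glucose transporter *Slc2a4* fell by 0.65 and 0.57 and *Hk2* by 0.76 and 0.65, calls that scaling to the total ended in males for both genes and in females for *Slc2a4*, as did leaving out female control replicate 2 there, while *Ldha* rose by 0.65 and 0.41.

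Cell cycle genes rose from low levels, 15 of 24 in males with 1 lower and 18 in females, with medians of 0.614 and 0.812. The 18 became 13 without female week 1 replicate 2. *Aurkb*, a kinase of mitosis, went from 0.337, 0.454 and 1.25 CPM to 1.94, 1.75, 2.03 and 2.06 CPM in males and from 0.435 to 0.942 CPM to 1.32 to 2.79 CPM in females (log2 fold change 1.13 and 1.16). The gene that fell was *Ccnd1* in males (-0.63). Of 12 immediate early genes 3 rose in each sex and 1 fell in females. *Myc* was among them, by 2.65 and 1.51, while *Fos* and *Egr1* passed in neither sex. Clock genes fell where they passed, 3 of 15 in males and 6 in females, with *Hlf* at -1.73 and -1.45, the latter lost without female control replicate 1 (adjusted p = 0.0557 by limma). With scaling to the total 1 clock gene was lower in males, and 3 were lower and 1 higher in females, and without female week 1 replicate 2 the 6 became 4. Of 12 targets of p53 3 were higher and 2 lower in males and 1 and 2 in females, and *Cdkn1a* stood at 0.24 and -0.53 and passed in neither sex. Chaperones of the secretory pathway were higher in 1 of 15 and lower in 2 in males, and higher in 6 and lower in 1 in females, where the 6 became 4 without female week 1 replicate 2. Over all genes tested 18.9% were higher and 14.6% lower in males and 15.3% and 13.1% in females.

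Whether the week 1 change differed between males and females was tested directly, and 0 of 16627 genes were called (0% of those tested), with a lowest adjusted p of 0.0587. At an unadjusted p under 0.05 there were 2908 genes, or 17.5%. On the reads recovered from the same tables edgeR also called 0 (2959 at an unadjusted p under 0.05), but DESeq2 called 501 (2990 unadjusted). Leaving out 1 library at a time gave 0 to 553 genes, the most without male week 1 replicate 1, then 410 without male control replicate 1, 382 without female control replicate 3 and 68 without male week 1 replicate 3. The count is therefore at the edge of the test.

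The 10 genes with the smallest p of this difference all had the more positive change in males. *Rps12*, a protein of the small ribosomal subunit, went from 117, 88.9 and 102 CPM to 228, 274, 227 and 312 CPM in males and from 118 to 156 CPM to 171 to 198 CPM in females, a difference in log2 fold change of 0.96 ± 0.19 (adjusted p = 0.0587). *Bax*, which opens the mitochondrial outer membrane, went from 12.5, 11.4 and 10.97 CPM to 17.98, 22.4, 18.3 and 24.0 CPM in males, and its groups overlapped in females at 12.8 to 16.2 and 12.9 to 15.8 CPM. For *Ptprn*, a protein of secretory granules, the difference was 1.38 ± 0.29, from a change of 1.02 in males and -0.36 in females. Others were *Iah1*, *Iscu*, *Trappc2l*, *Stoml1*, *Psmb4* and the unnamed *Gm2387*, with differences of 0.61 to 0.85. The larger gaps named above were not called either: for *Nppa* the difference was 2.13 ± 0.88 (adjusted p = 0.193) and for *Hp* 1.42 ± 0.44 (adjusted p = 0.0917).

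Week 1 was then set against the mean of weeks 3 and 6, within each sex. Few genes were called: 13 higher at week 1 and 23 lower in males, 0.0768% and 0.136% of those tested, and 32 higher and 104 lower in females, 0.189% and 0.613%. Of the 1366 genes changed at 2-fold or more against control at week 1 in males 15 were called against the later weeks, and of the 1246 in females 68. A missed threshold does not show that the remaining genes stayed level, since 3154 male and 1883 female genes had an unadjusted p under 0.05, and the male count of 36 was 577 by DESeq2. That count rests on single libraries: it was 7 without male week 1 replicate 1, 62 without male week 3 replicate 2, 500 without male week 6 replicate 1, and 0 with the 2 contradictory libraries placed by their titles. The female count of 136 was 69 without female week 1 replicate 3 or replicate 4.

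The 2 genes higher at week 1 than later in both sexes were *Adamtsl2*, a secreted protein bound to fibrillin, and *S100a9*, a subunit of the neutrophil protein calprotectin. *Adamtsl2* averaged 40.8 ± 5.25 CPM at week 1 in males, 21.2 ± 4.61 at week 3 and 19.1 ± 2.52 at week 6, with 24.1 CPM in controls. In females it averaged 39.5 ± 6.82, 19.8 ± 8.08 and 13.7 ± 0.783 CPM, with 52.9 CPM in controls (SD, n = 3 to 4). So the gene was above control at week 1 in males (adjusted p = 0.0531 without male control replicate 3) and between control and later weeks in females. *S100a9* was low throughout, at 1.14 and 1.80 CPM at week 1 and at most 0.543 CPM on average later, and its call against control in females was lost in edgeR and DESeq2.

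The 16 genes that were lower at week 1 than later in both sexes were, for antigen presentation, *H2-Aa*, *H2-Ab1*, *H2-Eb1*, *H2-DMb1*, *Cd74* and *Ciita*, all of MHC class II, with *Itgax* and *Cd209a* of dendritic cells, *Cxcl13* and *Tnfsf13b* of B cell support, *C4b* and *C6* of complement, *F5*, *Efemp1*, *Dlk1* and *Wfikkn2*. *H2-Eb1* averaged 36.7 CPM in male controls and 113 ± 22.6, 224 ± 109 and 313 ± 15.8 CPM at weeks 1, 3 and 6, and 24.1 CPM and 98.5 ± 31.2, 260 ± 43.2 and 382 ± 27.2 CPM in females. *Efemp1*, the matrix protein fibulin 3, averaged 13.2 ± 3.76, 28.6 ± 2.05 and 39.4 ± 8.97 CPM in males. It differed from later weeks by -1.34 ± 0.15 in males and -1.12 ± 0.18 in females (adjusted p = 0.000236 and 0.00189). Most of the genes lower than later were already above control at week 1, 17 of 23 in males and 75 of 104 in females. These counts share the week 1 libraries with the comparison against control.

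**Figure D5:**
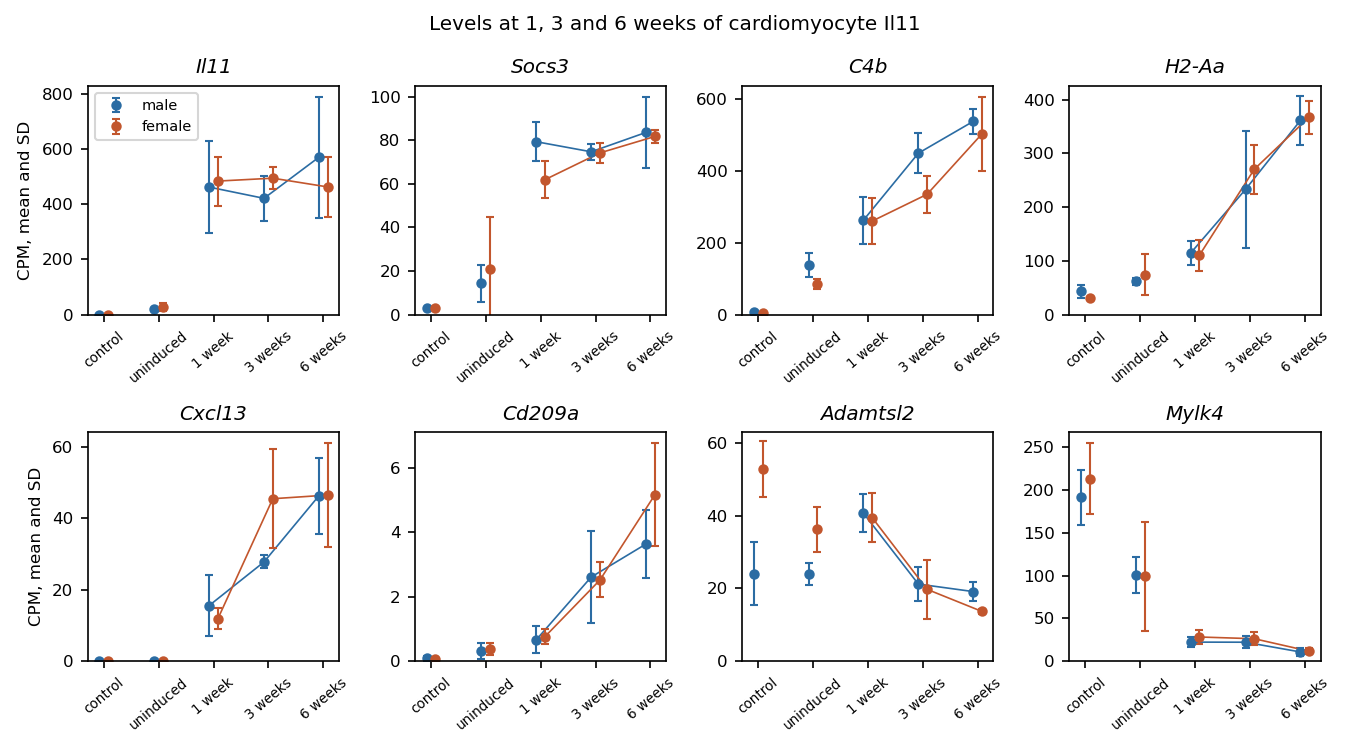
Mean CPM with SD (n = 3 to 4 hearts) of 8 genes in controls, uninduced hearts and weeks 1, 3 and 6, males in blue and females in orange, with lines joining the weeks. *H2-Aa* goes from 114 CPM at week 1 to 361 CPM at week 6 in males and from 110 to 367 CPM in females, *Adamtsl2* falls after week 1 in both sexes, and *Il11* and *Socs3* were not called between week 1 and the later weeks.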

How the data were processed

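PolyA RNA of 40 hearts was sequenced from stranded libraries. The authors aligned the reads with STAR to GRCm39, counted them with featureCounts on Ensembl genes and tested the counts with edgeR's quasi-likelihood model. The signal values the authors deposited are CPM, 1 table per sex, listing 17646 genes in males and 17223 in females (17038 in both). The rule by which genes were listed is not given in the sources used here. Column sums ran from 817395 to 1196278, and 100% of values were whole reads, within 0.001, once divided by 1 step per library, so the columns are read counts over a scaled library size. Rows without a gene name, 29 in males and 24 in females, have no symbol and were kept by identifier.

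Values were fitted as log2(CPM + 0.5) by limma-trend (limma 3.58.1 in R 4.3.3), all groups of a sex in 1 fit without covariates, on genes at 0.5 CPM or more in at least 3 libraries. P-values were adjusted by Benjamini-Hochberg over all genes tested and called under 0.05. The difference between the sexes was an interaction in 1 fit of both tables. Week 1 was also set against the mean of weeks 3 and 6. On recovered reads edgeR 4.0.16 called 5672 male and 4747 female genes and DESeq2 1.42.0 called 6040 and 4878. In a test on simulated data the male fit recovered 156 of 200 changed genes of 16142 and called 4 unchanged genes, and the female fit 161 of 200 of 16130 and 8. The simulated counts were drawn from the control means, with all but the 200 genes unchanged. They held no shift in mitochondrial share and no library that stood apart. The few false calls therefore hold for that setting and do not carry over to the real fits. The genes named are *Il11*, the 10 largest rises and falls called in both sexes at 2-fold or more with groups apart (ranked by the smaller change), the 10 smallest p of the sex difference, up to 8 genes in each direction called against later weeks in both sexes, the members of 43 gene lists with the largest changes (up to 5 a list) and those needed for their role, such as ligand, receptor or defining marker. Of the 16 genes lower than later all are named, 8 of them beyond the rule. Lists were written from general knowledge. Members and lists were chosen with earlier results of these data known. Alternatives covered pseudocounts, filters, scalings, tools, a replicate block, both placings of the 2 contradictory libraries and leaving out each library, and, chosen after seeing the data, scaling to the total and the list counts without the 2 libraries that stood apart. Positions and sequences are from GRCm39 with GENCODE release 39, where 99.6% of 17260 tested genes were found. Columns of weeks 3 and 6 and of uninduced hearts entered the fits as groups of their own. Depth limits low genes: counting intervals (95%, exact) and the floor of 3 reads cover counting error only. Replicates are separate mice. A few genes that the rule names are not reported here.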

Additional observations from a re-analysis of the deposited data

Results flagged for a closer look

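Of 63 groups of 4 libraries examined among *Il11* and the genes with the largest rises and falls, 5 held a library far from the other 3, where chance gives about 1 in 20. In males the library was week 1 replicate 4 for both genes: *Serpina3n* stood at 766.3 CPM against 1377 to 1539 CPM, and *Aldh1a2* at 105.6 CPM against 139 to 146 CPM. In females it was week 1 replicate 2 for all 3 genes: *Kcnv2* stood at 1.82 CPM against 2.81 to 2.97 CPM, *Pde4c* at 0.967 CPM against 4.23 to 5.18 CPM, and *Rasgrp2* at 8.59 CPM against 19.7 to 22.5 CPM. These are the same 2 libraries that stand apart in mitochondrial share and in atrial and nuclear transcripts, and the part of that in these values was not tested. By the rule that picked these genes, each library remains on the week 1 side of its controls.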

How the results depend on the processing

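Named genes kept their direction and their call in 4560 of 4758 recomputed changes, 198 lost the call and 0 changed sign. These changes were picked as called in the same data, and some settings hardly differ from the main fit, so the share kept overstates stability. TMM scaling of the recovered reads, which returned the main counts of genes, and no filter each kept 368 of 368. Leaving out libraries enters once per change, at its smallest, and lost 57 of 368. Of the lost calls 45 came with scaling to the total and 67 with the 2 contradictory libraries placed by their titles. Placing them by their descriptions lost 2. The cause was not tested. The count of male genes changed at week 1, 5671, was 3259 with that placing and 1366 with a log2 minimum of 1, and ranged from 3784 (without male control replicate 3) to 6674 (without male week 6 replicate 4) over left-out libraries. The female count, 4813, was 7584 with scaling to the total and 1246 with the minimum, and ranged from 3905 to 4932. The count in both sexes, 2857, was 1414 with the titles, 4671 with scaling to the total and 851 with the minimum, and ranged from 2292 to 3070. The sex difference, 0, was 501 by DESeq2 and 0 to 553 over left-out libraries. The male count against later weeks, 36, was 577 by DESeq2, 14 with the compared groups alone, 21 at a pseudocount of 0.1, 66 at 2, 66 with scaling to the total, 319 with descriptions, 0 with titles and 21 with the minimum, and ranged from 7 to 500. The female one, 136, was 206 by DESeq2 and 56 with the minimum, and ranged from 69 to 194. Over left-out libraries *Il11* ranged from 9.34 to 9.68 in males and from 9.56 to 9.75 in females. It was 7.74 and 7.85 at a pseudocount of 2, and 11.31 and 11.42 at 0.1. In males it was 7.13 with the titles (adjusted p = 0.0153 by limma) and 9.34 with the descriptions (adjusted p = 1.88e-17 by limma). Same-numbered control and week 1 libraries correlated at -0.117, 0.083 and -0.095 in males and 0.110, 0.030, -0.003 and 0.152 in females, so the numbers do not pair hearts. With a replicate block the counts were 5148 in males, 4866 in females, 2747 in both, and 13 and 144 against later weeks.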

Other observations

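Several genes outside the lists, chosen after their values were seen, moved as far as the named ones. *Ptx3*, a soluble pattern receptor of the pentraxin family, changed by 4.93 in males and 4.50 in females on the log2 scale, and *Lbp*, the lipopolysaccharide-binding protein of the acute phase, by 4.05 and 3.74. The hormone *Fgf23*, which bone secretes to control phosphate, changed by 3.11 and 3.39. *Tnfsf11* (RANKL), the cytokine of osteoclast formation, changed by 4.06 and 3.54, and *Acp5*, an enzyme of osteoclasts and macrophages, by 3.30 and 2.87. The interleukin 17 receptor *Il17ra* changed by 2.83 and 2.54 and the lymphatic growth factor *Vegfd* by 3.60 and 3.58. In the matrix *Ccn5* changed by 4.36 and 4.06 and the lubricating proteoglycan *Prg4* by 3.69 and 4.12. All passed the limma test in both sexes.

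Among the falls outside the lists, also chosen after their values were seen, *Myh7b*, a slow-type myosin with its own microRNA, changed by -1.55 and -1.74, and *Mhrt*, the long noncoding RNA antisense to *Myh7*, by -1.41 and -1.56. *Gpr22*, an orphan receptor of heart muscle, changed by -1.73 and -1.31, *Kit* by -1.30 and -1.37 and *Rgs2*, which damps signalling by Gq, by -1.28 and -2.02. The collagens *Col4a3* and *Col4a4*, which lie side by side in the genome, changed together, by -1.36 and -1.31 and by -1.30 and -1.41.

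*Dbh*, the enzyme that makes noradrenaline in sympathetic nerves, held 3.71, 3.94 and 3.70 CPM in male controls and 0.536, 1.66, 0.898 and 0.899 CPM at week 1, and went from 2.84 to 4.75 CPM to 0.544 to 1.97 CPM in females, a log2 fold change of -1.56 and -1.65. The glial gene *S100b* passed in neither sex. Of the list of nerve and glial genes 2 of 5 were lower in males and 1 of 6 in females. Over all genes tested 14.6% and 13.1% were lower. Of 8 adipocyte markers 2 were listed, and *Cfd*, also a complement gene, rose in females. Of the atrial markers 2 rose in each sex, *Nppa* and *Dkk3*, and neither passed in females without female week 1 replicate 2. Among nuclear RNAs *Neat1* and *Meg3* were higher and *Kcnq1ot1* lower in males, and none of 5 passed in females.

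Genes of ribosomal proteins, a list made after *Rps12* had been seen among the sex differences, were mostly called higher in males and seldom called in females. Of 82 genes 68 were higher and 1 lower in males, with a median of 0.698, and 7 were higher and 2 lower in females, with a median of 0.118. Over all genes tested 18.9% were higher and 14.6% lower in males, and 15.3% and 13.1% in females. The sex difference had a median of 0.546 and was called for 0 of the 82. Short genes had the more positive changes in males: the rank correlation of log2 fold change with exon length was -0.220 over 16868 genes in males, -0.023 over 16890 in females and -0.279 over 16571 for the difference, a description over genes of the same libraries. In males the fifth of genes with at most 2308 exonic bases had a median change of 0.153 and the fifth with at least 9405 a median of -0.136. Without male week 1 replicate 4 the correlation in males was -0.229, and without female week 1 replicate 2 that in females was -0.007. The 9 genes called in opposite directions, *Nenf*, *Fis1*, *Trappc2l*, *Naa38*, *Commd1*, *Rab24*, *Maff*, *Rbx1* and *Ndufa2*, had a median exon length of 3185 bases and the 10 with the smallest p of the sex difference 3868, against 5482 over all genes. The part of length in these differences was not tested.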
